A study of Mus musculus with 20 samples.

Results

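The 40 genes described here mark the brain's blood vessels: endothelial cells, the pericytes wrapped around them, and the transporters and junctions of the blood-brain barrier. They were taken by symbol from a list, and 39 of the 40 were rows of a table of 12988 genes; Higd1b, a pericyte gene, was not analysed here. By role, 19 were endothelial surface, junction and signalling genes, 4 were endothelial transcription factors, 3 were tight junction genes, 9 were barrier transport genes and 4 were pericyte genes. The first 2 of these roles, 23 genes, are called endothelial identity genes below.

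RNA was measured by sequencing in the adBNST (bed nucleus of the stria terminalis, anterodorsal division), a part of the forebrain tied to responses to threat. The 4 groups were female control, female stressed, male control and male stressed mice, with 5 libraries each and 20 in all. Mice entered at 7 to 9 weeks of age, and stressed mice then went through 6 weeks of chronic variable mild stress, a changing daily schedule of minor stressors, with tissue taken 1 hour after the last of them (wet bedding). All mice were killed under ketamine. Every library pooled the microdissected tissue of 3 mice, so it averages over them. No strain was given in the sources used here, and no allele or agent other than the anesthetic.

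Brain endothelial cells are sealed to each other by tight junctions and let few substances pass between them, so glucose, amino acids, lactate, thyroid hormone and lipids cross through dedicated carriers while efflux pumps return drugs and metabolites to the blood. Pericytes share the basement membrane with the endothelium and signal to it, and endothelial barrier properties are known to need Wnt signals from neural cells. In bulk tissue of a brain region, vascular RNA is a small part of the total. Fewer cells of a type and less RNA per cell cannot be told apart in such data.

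Libraries held from 2707881 to 33595388 counts, with a median of 15598376, and the lowest count of any of the 39 genes in any library was 12. Levels are given in CPM, counts scaled to the size of the library with edgeR's TMM factors. All 10 neuronal markers looked for, among them Gad1, Gad2 and Slc32a1 of inhibitory neurons, were in the table and above 0 in every library. All 39 vascular genes were above 0 in every library as well.

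**Figure D1:**
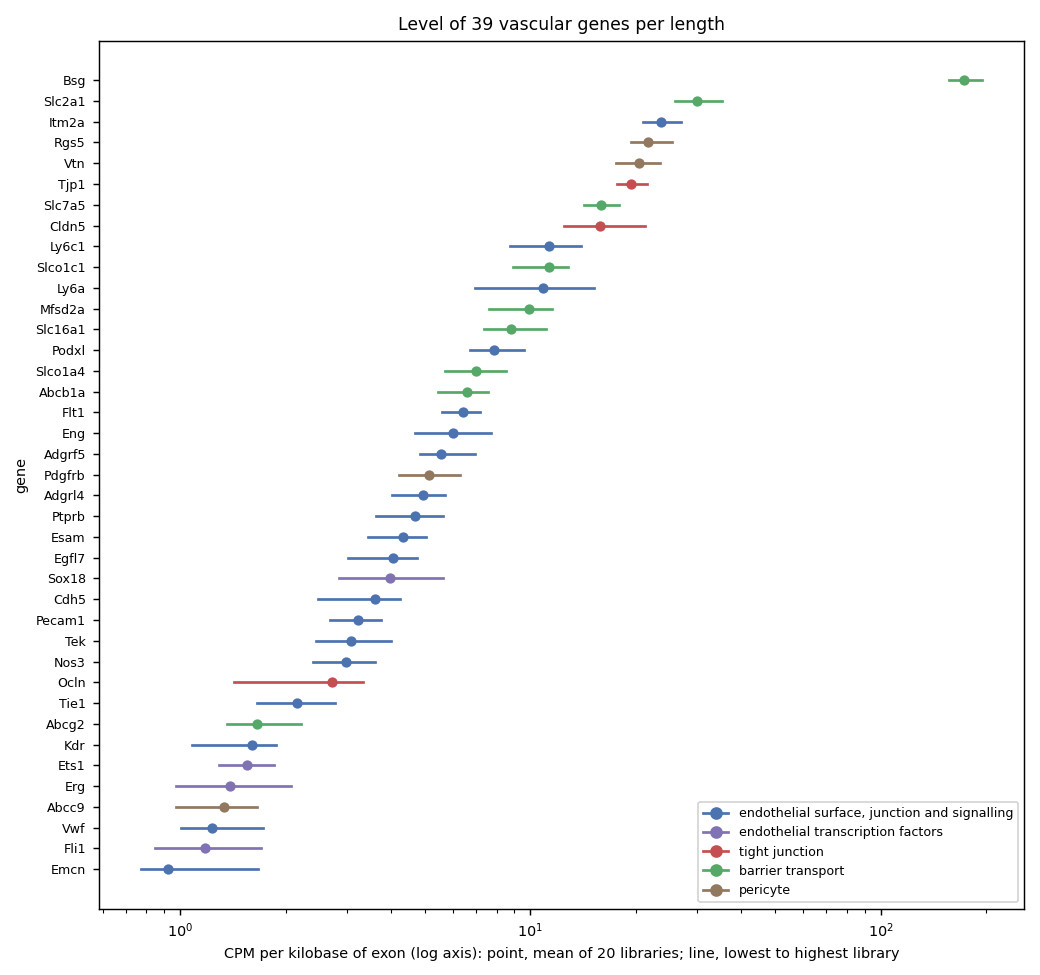
Level of each of the 39 genes in CPM per kilobase of exon, on a log axis, coloured by role. Points are means of 20 libraries and lines run from the lowest to the highest library; Bsg at 174 stands far above all others, and Emcn at 0.923 is the lowest.

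Levels can be set side by side between genes only per length, here as CPM per kilobase of exon, averaged over the 20 libraries. Bsg, which encodes basigin, the partner that brings monocarboxylate carriers to the membrane, had the highest level at 174. Neurons and glia express Bsg too. Slc2a1, the glucose carrier of the barrier, followed at 29.9, and Itm2a, a membrane protein gene on the X chromosome, at 23.7. Among pericyte genes the level ran from Rgs5, a regulator of G-protein signalling, at 21.7, through Vtn, which encodes vitronectin, at 20.4 and the growth factor receptor gene Pdgfrb at 5.13 to Abcc9, a subunit of potassium channels, at 1.33. Of the tight junction genes, the scaffold gene Tjp1 stood at 19.4, Cldn5, the main claudin of brain endothelium, at 15.8, and Ocln, which encodes occludin, at 2.70. The amino acid carrier Slc7a5 had a mean level of 15.9, the thyroid hormone carrier Slco1c1 11.3, the lysophospholipid carrier Mfsd2a 9.92, the lactate carrier Slc16a1 8.79, the organic anion carrier Slco1a4 7.01 and the efflux pump genes Abcb1a and Abcg2 6.61 and 1.66. The 4 transcription factor genes were among the lower ones, from Sox18 at 3.98 to Ets1 at 1.55, Erg at 1.38 and Fli1 at 1.18 CPM per kilobase.

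Bsg did not overlap any other gene over the libraries. Each of the other genes overlapped its neighbours in the order of levels. All genes were measured in the same libraries and were not compared library by library. These ranges therefore do not decide whether neighbouring ranks below Bsg differ. Some values may hold reads of another gene. Exons of Eng and Fpgs overlap on opposite strands by 61 bases, and exons of Nos3 and Atg9b by 294 bases, with both partners in the table. Ly6a and Ly6c1, Abcb1a, and Slco1a4 belong to families of related genes, so their counts are uncertain to the extent that reads were shared within a family.

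The spread between libraries of one group was like that of the table as a whole. The pooled within-group coefficient of variation had a median of 9.65% over the 39 genes and 9.14% over all genes. Slc7a5 varied least at 5.33%, followed by Tjp1 at 5.62% and Itm2a at 5.92%. Emcn, the endothelial mucin gene endomucin, varied most at 17.8%, with Erg at 17.1% and Sox18 at 16.3%. Counts were lowest for 2 transcription factor genes: Sox18 had as few as 15 counts in a library and Fli1 as few as 12, against 941 or more for Bsg.

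Promoter sequences are shown for 4 genes described below. Cldn5 and Tek had lower means in male than in female controls, and Slc2a1 and Mfsd2a had higher ones. Only the Cldn5 difference passed the edgeR test given below, and those of Tek, Slc2a1 and Mfsd2a did not. Each sequence is the 250 bases before the annotated start, 5′ to 3′ on the gene's strand, from RefSeq on GRCm38.p6, the assembly of mm10. Capitals mark letters of the motifs searched.
Cldn5 (chr16:18776597-18776846, + strand): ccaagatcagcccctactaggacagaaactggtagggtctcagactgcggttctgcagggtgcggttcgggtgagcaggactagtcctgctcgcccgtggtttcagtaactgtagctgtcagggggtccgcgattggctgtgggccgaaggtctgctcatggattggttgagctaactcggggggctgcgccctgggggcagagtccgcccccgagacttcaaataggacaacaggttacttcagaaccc
Tek (chr4:94739039-94739288, + strand): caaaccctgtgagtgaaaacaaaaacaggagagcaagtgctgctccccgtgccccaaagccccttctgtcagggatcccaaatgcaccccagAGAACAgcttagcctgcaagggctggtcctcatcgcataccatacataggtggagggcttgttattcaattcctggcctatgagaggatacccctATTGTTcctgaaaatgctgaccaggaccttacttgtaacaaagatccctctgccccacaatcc
Slc2a1 (chr4:119108495-119108744, + strand): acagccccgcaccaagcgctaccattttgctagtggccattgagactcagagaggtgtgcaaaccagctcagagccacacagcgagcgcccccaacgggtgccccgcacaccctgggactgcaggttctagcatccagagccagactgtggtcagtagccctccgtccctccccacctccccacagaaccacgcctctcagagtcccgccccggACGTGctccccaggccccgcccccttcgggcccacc
Mfsd2a (chr4:122961189-122961438, - strand): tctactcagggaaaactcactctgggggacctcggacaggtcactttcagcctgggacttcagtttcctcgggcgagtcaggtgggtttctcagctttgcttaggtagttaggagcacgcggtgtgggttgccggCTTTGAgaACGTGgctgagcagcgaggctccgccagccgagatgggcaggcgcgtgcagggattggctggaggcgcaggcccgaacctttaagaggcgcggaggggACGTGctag

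6 short motifs were searched on both strands: AGGAAG and CGGAAG, which ETS factors such as Erg and Fli1 bind, CTTTGA of the TCF/LEF factors of Wnt signalling, AACAAT of SOX factors, ACGTG of hypoxia-inducible factors, and AGAACA, part of the steroid receptor site. None overlaps another by its letters in the 4 windows. The Cldn5 window held none of the 6. In the Tek window ATTGTT, the reverse complement of the SOX motif, lay 63 bases before the start and AGAACA 158 bases before it. ACGTG lay 36 bases before the RefSeq start of Slc2a1, and 107 and 9 bases before the Mfsd2a start, where CTTTGA lay at 115 bases. GENCODE M21 starts Slc2a1 earlier, at chr4:119108711, inside the window shown. Of all 32851 windows of this length, 29.5% held AGGAAG, 13.6% CGGAAG, 13.8% CTTTGA, 9.42% AACAAT, 16.6% ACGTG and 16.1% AGAACA. 25 of the 39 genes matched an entry, with 34 windows, and of these 17 held AGGAAG, 2 CGGAAG and 4 each of the other motifs. A match says only that the letters are there.

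Male and female controls differed in the gene of the main barrier claudin. Cldn5 was the 1 gene of the 39 that passed the test (edgeR quasi-likelihood, Benjamini-Hochberg adjusted p under 0.05 over all 12988 genes), where 0.747% of all genes did. Its CPM in the 5 female control libraries was 27.2, 25.8, 25.0, 30.1 and 26.0, and in the 5 male control libraries 21.5, 17.6, 20.3, 17.7 and 20.3. Every male library lay below every female one. The male mean of 19.5 ± 1.73 CPM (SD, n = 5) was set against 26.8 ± 2.01 in females, a fold of 0.737, and the log2 difference, male minus female, was -0.44 (SE 0.084, adjusted p = 0.0122). In mm10, Cldn5 lies at chr16:18776847-18778262, + strand. The other tight junction genes had differences near 0, with 0.010 (SE 0.054, adjusted p = 0.972) for Tjp1 and 0.049 (SE 0.12, adjusted p = 0.904) for Ocln.

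**Figure D2:**
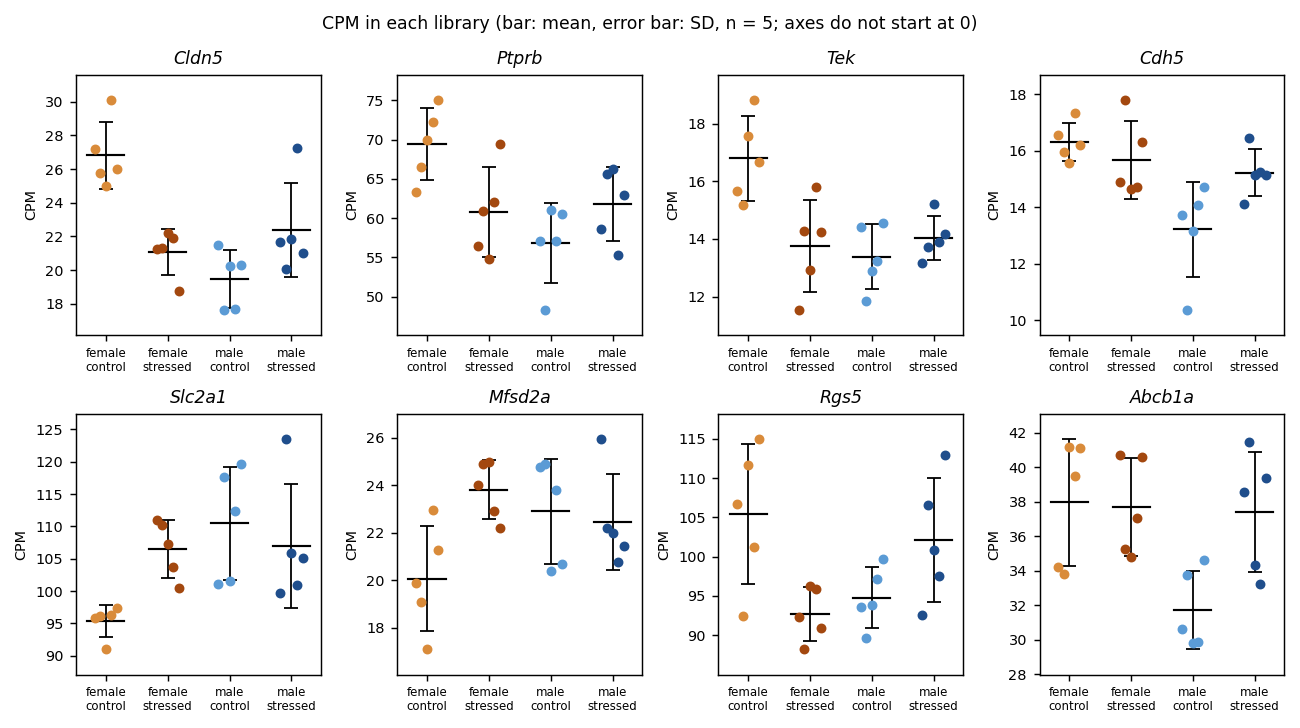
CPM of 8 genes in each of the 20 libraries, with the mean and SD of each group (n = 5); the axes do not start at 0. Cldn5, Ptprb, Tek and Cdh5 show every male control below every female control, and Slc2a1 shows the reverse.

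Of the endothelial identity genes, 22 of 23 had a negative difference in this comparison, none of them called. Their median was -0.12 on the log2 scale, against 0.00025 for all genes. Over all 39 genes, 7 differences were positive and 32 negative, and the 39-gene median was -0.11. At an unadjusted p under 0.05, 10 of 39 were lower in males, where 8.17% of all genes were, and 3 were higher, where 7.08% of all genes were. DESeq2 called 3 of the 39 (Cldn5, Ptprb and Slc2a1) and limma-voom called Cldn5 alone. The shares of all genes called by these methods are not given here, so these counts cannot be set against them.

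Ptprb encodes an endothelial phosphatase that acts on the receptor Tek and on VE-cadherin. Its CPM was 63.3, 66.6, 70.0, 72.3 and 75.1 in female controls and 57.1, 48.3, 61.0, 57.1 and 60.5 in male controls. The 2 sets did not overlap, and the difference of -0.28 (SE 0.073, adjusted p = 0.0740) missed the threshold. Its adjusted p was 0.0336 by DESeq2 and 0.0432 with only the 2 control groups in the fit. It was 0.114 by limma-voom and 0.0900 by edgeR with the replicate number in the fit. With the level of a list of striatal neuron genes as a covariate the difference was -0.23 (adjusted p = 0.264, edgeR).

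Tek is the receptor for angiopoietins, which keep vessels quiescent. Female controls gave 15.7, 15.2, 17.6, 18.8 and 16.7 CPM and male controls 14.4, 11.8, 12.9, 13.2 and 14.6, again without overlap. The log2 difference was -0.28 (SE 0.083, adjusted p = 0.105). Cdh5, which encodes VE-cadherin of the adherens junction, had 16.5, 16.0, 15.6, 17.3 and 16.2 CPM in female and 13.7, 10.4, 13.2, 14.1 and 14.7 in male controls. These also did not overlap, and the difference was -0.27 (SE 0.082, adjusted p = 0.119). Podxl, the sialomucin podocalyxin of the luminal surface, had 44.7 to 52.6 and 37.2 to 43.8 CPM with a difference of -0.22 (SE 0.085, adjusted p = 0.219), and -0.089 (adjusted p = 0.708) with the level of a list of striatal neuron genes as a covariate. Kdr, the main VEGF receptor, had 15.7 ± 1.18 and 13.1 ± 1.54 CPM (SD, n = 5), a difference of -0.27 (SE 0.11, adjusted p = 0.221), and its groups overlapped.

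Groups did not overlap for 5 of the 39 genes with lower male values (Cldn5, Ptprb, Tek, Cdh5 and Podxl), where this held for 2.02% of all genes, and for 1 with higher male values (Slc2a1), where it held for 1.95%. The other surface genes overlapped between the control groups. Flt1, the decoy receptor for VEGF, gave -0.028 (SE 0.071, adjusted p = 0.910), and Pecam1, the adhesion molecule that marks endothelium in general, gave -0.12 (SE 0.083, adjusted p = 0.601). The remaining surface genes lay between -0.28 for Emcn and 0.018 for Ly6c1. No test compared one gene's difference with another's.

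All 4 transcription factor genes had a negative difference. Sox18, a factor of vessel growth, had CPM of 9.09, 6.35, 6.82, 5.65 and 8.34 in female and 5.15, 5.25, 4.92, 6.64 and 4.60 in male controls. Those ranges overlapped, and Sox18 was among the least counted genes. Its difference was -0.48 (SE 0.15, adjusted p = 0.118), and -0.28 with the striatal covariate. Erg, an ETS factor that maintains endothelial identity, gave -0.31 (SE 0.15, adjusted p = 0.327), and -0.49 without male control library 5. Its relative Fli1 gave -0.19 (SE 0.14, adjusted p = 0.543) and Ets1, which other cells express too, -0.061 (SE 0.082, adjusted p = 0.786).

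Barrier transport genes did not share one direction: 4 of 9 differences were positive and 5 negative, none of them called. Slc2a1 had 95.8, 96.1, 91.0, 96.4 and 97.3 CPM in female controls and 101, 118, 102, 112 and 119.6 in male controls. Every male library lay above every female one, and the difference was 0.22 (SE 0.059, adjusted p = 0.0846). It was called by DESeq2 (adjusted p = 0.0391) and with the oligodendrocyte list's level as a covariate (adjusted p = 0.0378). It was not called by limma-voom (adjusted p = 0.109). By edgeR it also missed the threshold with only the control groups in the fit (adjusted p = 0.0538) and with the replicate number in the fit (adjusted p = 0.108). With the striatal covariate the difference was 0.23 (adjusted p = 0.154, edgeR).

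Mfsd2a, which carries docosahexaenoic acid into the brain as lysophospholipid and limits transcytosis, had 19.9, 19.1, 17.1, 23.0 and 21.3 CPM in female controls and 24.8, 24.9, 20.4, 23.8 and 20.7 in male controls. The groups overlapped, with a difference of 0.22 (SE 0.080, adjusted p = 0.183). Abcb1a, the drug efflux pump P-glycoprotein, had values of the other sign: 34.2, 33.8, 41.2, 39.5 and 41.1 CPM in female and 30.6, 33.8, 29.8, 29.9 and 34.6 in male controls. Its difference was -0.24 (SE 0.079, adjusted p = 0.141), and 1 male library lay within the female range. The other transport genes were Slc7a5 at 0.11 (SE 0.054, adjusted p = 0.315), Slco1c1 at 0.13 (SE 0.067, adjusted p = 0.381), Slc16a1 at -0.15 (SE 0.089, adjusted p = 0.426), Slco1a4 at -0.086, Abcg2 at -0.087 and Bsg at -0.050.

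The 4 pericyte genes had negative differences, none called. Rgs5 had 105 ± 8.91 CPM in female controls and 94.8 ± 3.86 in male controls (SD, n = 5), a difference of -0.15 (SE 0.059, adjusted p = 0.223). Pdgfrb, the receptor through which endothelial cells recruit pericytes, gave -0.13 (SE 0.080, adjusted p = 0.460), Vtn -0.10 (SE 0.072, adjusted p = 0.525) and Abcc9 -0.19 (SE 0.11, adjusted p = 0.429).

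Markers of some other cells had lower values in male controls too, none of them called, and beyond the fits with a covariate given here their part in the vascular values was not tested. Of 14 markers of striatal neurons, a neighbouring tissue, 13 were lower in male controls at an unadjusted p under 0.05, with summed levels of 3759 to 6582 CPM in female and 3528 to 4402 in male control libraries. At the same threshold, where 8.17% of all genes were lower, microglial markers were lower for 6 of 11 (455 to 521 against 403 to 499 CPM). Astrocyte markers were lower for 3 of 11 (5692 to 6356 against 5427 to 5519.8) and oligodendrocyte markers for 1 of 14 (9304 to 13419 against 8524 to 13195). By direction alone, 14 of 14 striatal, 10 of 11 microglial, 9 of 11 astrocyte and 14 of 14 oligodendrocyte differences were negative. None of these markers was at 0 in any library. Of 10 neuronal markers, 5 differences were positive and 5 negative, of 6 choroid plexus genes 3 and 3, and of 5 ependymal genes 2 and 3. With the striatal list's level as a covariate the Cldn5 difference was -0.48 (adjusted p = 0.0215, edgeR), and with the oligodendrocyte list's level -0.44 (adjusted p = 0.00953). Over all alternative settings, both covariates included, its adjusted p ran from 0.00112 to 0.0215, and over the fits that left out 1 library from 0.00185 to 0.0488.

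Of 19 genes known to be induced by glucocorticoids, 11 were higher in male controls at an unadjusted p under 0.05 and 4 were called (Sgk1, Tsc22d3, Arrdc2 and Ddit4). Of all genes, 7.08% were higher at that threshold and 0.747% were called. The Ddit4 call was lost with limma-voom, the replicate block or the striatal covariate, and without any of 4 control libraries (female 1 and 5, male 2 and 3). Sgk1, a kinase gene, gave 1.06 (SE 0.16, adjusted p = 0.00162). Their summed level was 773 to 894 CPM in female and 889 to 1092 in male controls. Endothelial cells carry the glucocorticoid receptor, as do neurons and glia. With stress, 6 of the 19 were higher in females at an unadjusted p under 0.05, where 3.69% of all genes were. In males 8 were lower, where 6.76% of all genes were. 1 of them was called, Arrdc2 in males, at -0.71 (SE 0.10, adjusted p = 0.00851), where 0.00770% of all genes were. This call was lost with the striatal covariate, and without stressed male library 3 or 4. The part of these hormone signals in the vascular values was not tested.

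Stress in females gave no call among the 39 genes by edgeR, DESeq2 or limma-voom, where 0% of all genes were called by edgeR. The female controls are the same 5 libraries as in the sex comparison above, so the values of the 2 comparisons are not independent. Stressed minus control, 13 differences were positive and 26 negative with a median of -0.090. At an unadjusted p under 0.05, 7 of 39 genes were lower, where 3.83% of all genes were, and 3 were higher, where 3.69% were.

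Cldn5 had 21.3, 21.3, 22.2, 21.9 and 18.8 CPM in stressed females, all below the lowest female control at 25.0. Its difference was -0.33 (SE 0.082, adjusted p = 0.396), which missed the threshold in every alternative run. Non-overlap with lower values held for Cldn5 alone among the 39 and for 0.562% of all genes, and with higher values for Slc2a1 alone and for 0.654% of all genes. Slc2a1 stood at 111, 110.2, 107, 104 and 100.4 CPM in stressed females, with a difference of 0.16 (SE 0.059, adjusted p = 0.597). Mfsd2a, at 24.0, 24.9, 25.0, 22.9 and 22.2 CPM, gave 0.28 (SE 0.079, adjusted p = 0.565), and 1 female control lay within the stressed range.

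Rgs5 ran from 88.2 to 96.3 CPM in stressed females against 92.4 to 115 in female controls, a difference of -0.19 (SE 0.059, adjusted p = 0.570). Abcc9 gave -0.21 (SE 0.11, adjusted p = 0.677), Vtn -0.13 (SE 0.071, adjusted p = 0.713) and Pdgfrb -0.013 (SE 0.079, adjusted p = 0.999), so all 4 pericyte genes were negative here too. Tek had 11.5, 14.3, 12.9, 15.8 and 14.3 CPM in stressed females with -0.25 (SE 0.082, adjusted p = 0.570). Ptprb gave -0.18 (SE 0.073, adjusted p = 0.617), while Cdh5 gave -0.036 (SE 0.080, adjusted p = 0.999).

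Vwf, which encodes the von Willebrand factor that endothelium stores and releases to bind platelets, had a positive difference where most surface genes had a negative one. Its level was 19.2, 16.8, 17.1, 23.3 and 18.7 CPM in female controls and 19.9, 19.9, 19.9, 27.6 and 26.1 in stressed females, with a difference of 0.31 (SE 0.10, adjusted p = 0.570) and overlapping ranges. Ly6a and Ly6c1, 2 genes of membrane-anchored Ly6 proteins of brain endothelium, gave -0.31 (SE 0.13, adjusted p = 0.628) and -0.20 (SE 0.088, adjusted p = 0.632). The lactate carrier Slc16a1 gave -0.23 (SE 0.088, adjusted p = 0.603). Oligodendrocytes express Slc16a1 as well. In stressed females 8 of 14 oligodendrocyte markers were lower at an unadjusted p under 0.05, where 3.83% of all genes were, and none was called. Their summed levels were 9304 to 13419 CPM in controls and 8769.9 to 10765 in stressed females, none at 0. With the oligodendrocyte list's level as a covariate the Slc16a1 difference was -0.11 (adjusted p = 0.851, edgeR), not called with or without it. Beyond this fit, the part of oligodendrocytes in the Slc16a1 value was not tested.

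Stress in males also called none of the 39 genes by edgeR, DESeq2 or limma-voom, where 0.00770% of all genes were called by edgeR. The male controls are the libraries compared with female controls above. Here 30 differences were positive and 9 negative, with a median of 0.072. At an unadjusted p under 0.05, 5 of 39 were higher, where 8.71% of all genes were, and 0 were lower, where 6.76% were. No gene of the 39 had groups that did not overlap, where 3.13% of all genes did with higher values and 1.16% with lower ones.

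Abcb1a had the smallest p of the 39, with 38.6, 41.5, 34.3, 33.2 and 39.4 CPM in stressed males and a difference of 0.23 (SE 0.077, adjusted p = 0.154). Slco1a4, a carrier of organic anions and steroid conjugates, had 44.0 ± 5.25 CPM in female controls, 45.9 ± 2.94 in stressed females, 42.2 ± 2.94 in male controls and 47.8 ± 4.48 in stressed males (SD, n = 5 in each group). Its difference in males was 0.18 (SE 0.074, adjusted p = 0.228). Cldn5 gave 21.7, 20.1, 21.9, 27.2 and 21.0 CPM in stressed males, where 1 library stood above the other 4. Its difference was 0.21 (SE 0.081, adjusted p = 0.206), and 0.12 without that library. Cdh5 gave 0.18 (SE 0.079, adjusted p = 0.273), Itm2a 0.12 (SE 0.057, adjusted p = 0.315) and Sox18 0.27 (SE 0.14, adjusted p = 0.369). Slc2a1 and Mfsd2a were near 0, at -0.049 (SE 0.058, adjusted p = 0.772) and -0.042 (SE 0.076, adjusted p = 0.877). All 14 striatal markers were higher in stressed males at an unadjusted p under 0.05 (3528 to 4402 CPM summed in controls, 4978 to 7399 in stressed males). At this threshold 3 of 11 microglial markers were higher too, where 8.71% of all genes were. With the striatal covariate the Cldn5 difference in males was 0.26 (adjusted p = 0.843, edgeR).

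**Figure D3:**
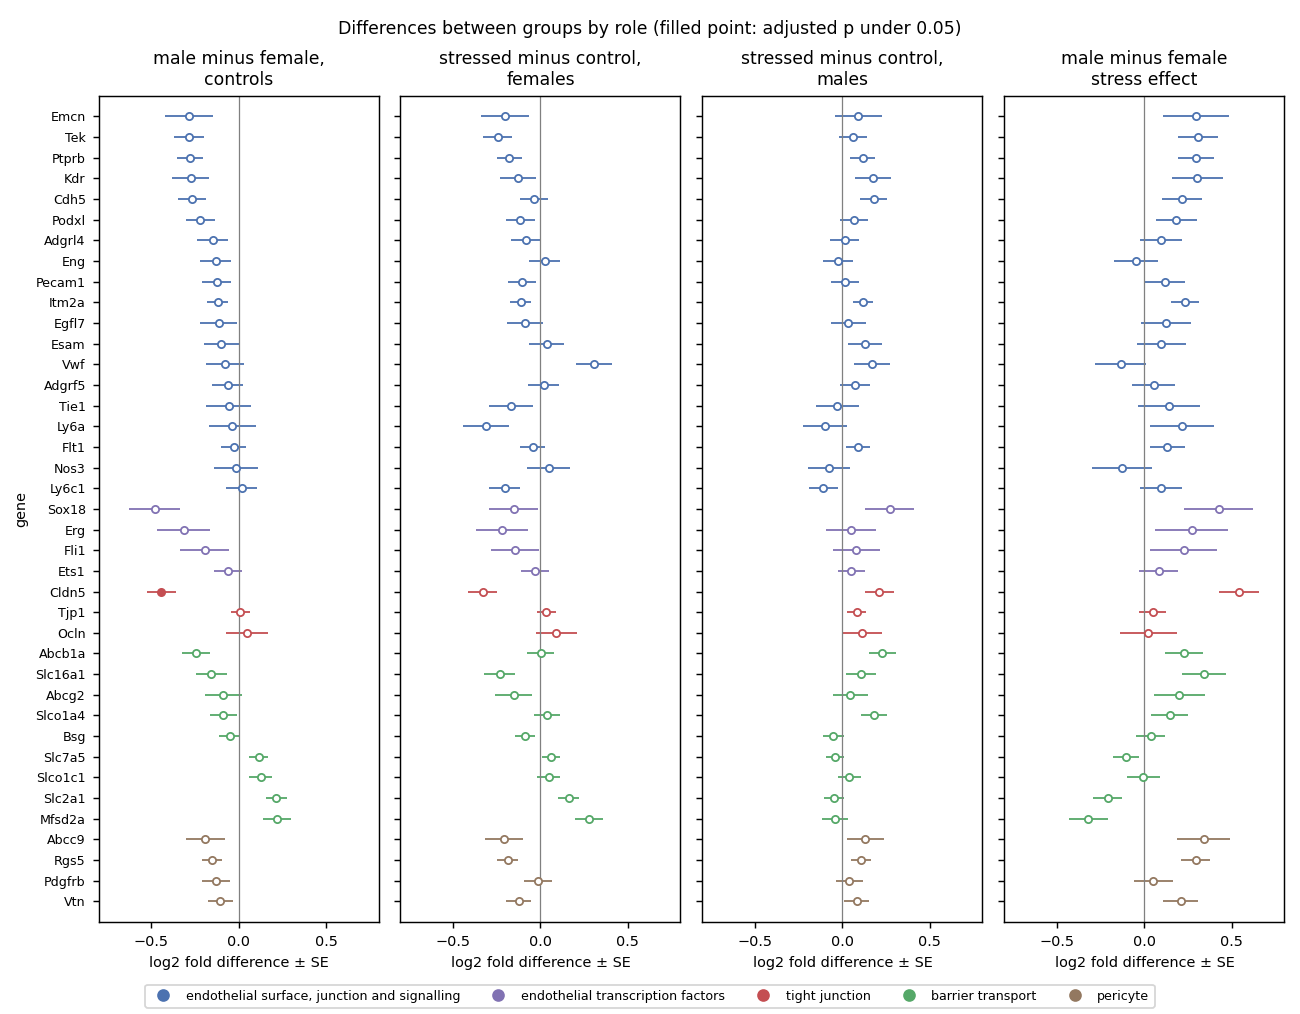
Log2 differences with their SE for all 39 genes in 4 comparisons, coloured by role; the filled point is the 1 difference with an adjusted p under 0.05, Cldn5 between male and female controls. Most endothelial and pericyte genes lie left of 0 in the first 2 panels and right of 0 in the last, and Slc2a1 and Mfsd2a lie on the other side.

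The test of whether stress acted differently in the sexes, the male minus the female stress effect, called none of the 39 genes by edgeR, where 0% of all genes were called. By limma-voom it called 0, and by DESeq2 1, Cldn5. The share of all genes called by either method is not given here. 32 of the 39 differences were positive and 7 negative, with a median of 0.14. At an unadjusted p under 0.05, 9 of 39 were positive, where 5.34% of all genes were, and 2 were negative, where 5.03% were. This test uses all 4 groups and so shares libraries with each comparison above.

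Cldn5 led with 0.54 (SE 0.12, adjusted p = 0.136) by edgeR and an adjusted p of 0.0351 by DESeq2. By p, Rgs5 followed at 0.29 (SE 0.083, adjusted p = 0.280), with 105 ± 8.91 CPM in female controls, 92.7 ± 3.42 in stressed females, 94.8 ± 3.86 in male controls and 102 ± 7.88 in stressed males (SD, n = 5 in each group). The positive side, at an unadjusted p under 0.05, also held Ptprb at 0.29 (SE 0.10, adjusted p = 0.348), Itm2a at 0.23 (SE 0.081, adjusted p = 0.349), Slc16a1 at 0.34 (SE 0.12, adjusted p = 0.359), Tek at 0.31 (SE 0.11, adjusted p = 0.366), Abcc9 at 0.34 (SE 0.15, adjusted p = 0.447), Sox18 at 0.42 (SE 0.20, adjusted p = 0.473) and Kdr at 0.30 (SE 0.15, adjusted p = 0.481). With the striatal covariate the Sox18 value was 0.21. On the negative side were 2 barrier carriers, Mfsd2a at -0.32 (SE 0.11, adjusted p = 0.348) and Slc2a1 at -0.21 (SE 0.083, adjusted p = 0.393). 10 of 14 striatal, 3 of 11 microglial and 2 of 11 astrocyte markers were positive at an unadjusted p under 0.05 in the same test. At this threshold 1 of 11 astrocyte markers and 10 of 19 glucocorticoid-induced genes were negative. All 14 oligodendrocyte markers were positive by direction, 0 of them at this threshold.

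None of the 39 genes passed the test between stressed males and stressed females by edgeR, DESeq2 or limma-voom, where 0.0770% of all genes were called by edgeR. At an unadjusted p under 0.05, 2 genes were higher in males (Rgs5 and Slc16a1, where 3.71% of all genes were) and 2 lower (Vwf and Eng, where 3.35% were). Rgs5 gave 0.14 (SE 0.058, adjusted p = 0.649), Slc16a1 0.19 (SE 0.085, adjusted p = 0.678) and Vwf -0.21 (SE 0.099, adjusted p = 0.683). Eng, the TGF-beta co-receptor endoglin, gave -0.18 (SE 0.086, adjusted p = 0.699). Without stressed female library 4 the Eng difference was -0.10 and that of Vwf -0.14. For Cldn5 the difference was 0.10 (SE 0.080, adjusted p = 0.828), with 22.4 ± 2.80 CPM in stressed males and 21.1 ± 1.36 in stressed females (SD, n = 5).

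Averaged over the sexes, stress called none of the 39 by edgeR, DESeq2 or limma-voom, where 0% of all genes were called by edgeR. At an unadjusted p under 0.05, 4 were higher (Vwf, Mfsd2a, Abcb1a and Slco1a4), where 7.45% of all genes were, and 2 lower (Ly6c1 and Ly6a), where 5.27% were. Vwf had 19.0 ± 2.62 CPM in female controls, 22.7 ± 3.82 in stressed females, 17.5 ± 1.72 in male controls and 19.7 ± 1.70 in stressed males (SD, n = 5 in each group), and its averaged difference was 0.24 (SE 0.073, adjusted p = 0.256), or 0.15 (adjusted p = 0.9999) with the striatal covariate. The mean was higher with stress in both sexes. Ly6c1 had 20.2 ± 2.24 CPM in female controls, 17.2 ± 1.41 in stressed females, 20.2 ± 1.65 in male controls and 18.4 ± 2.30 in stressed males, with -0.16 (SE 0.061, adjusted p = 0.299). Ly6a had 14.2 ± 1.01 CPM in female controls, 11.6 ± 2.05 in stressed females, 14.1 ± 2.43 in male controls and 12.6 ± 2.39 in stressed males, with -0.21 (SE 0.092, adjusted p = 0.360).

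For Pecam1, Flt1, Pdgfrb and Vtn the libraries overlapped between controls and with stress in either sex. Pecam1 had 21.4 ± 1.15 CPM in female controls, 19.8 ± 1.75 in stressed females, 19.2 ± 2.13 in male controls and 19.7 ± 1.78 in stressed males (SD, n = 5 in each group). For Flt1 the values were 87.1 ± 7.52 CPM in female controls, 84.0 ± 7.63 in stressed females, 85.1 ± 6.94 in male controls and 90.4 ± 5.39 in stressed males. The Pecam1 mean was highest in female controls, and the Flt1 mean in stressed males.

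The pericyte receptor gene Pdgfrb had 29.1 ± 1.40 CPM in female controls, 28.9 ± 3.28 in stressed females, 26.8 ± 0.922 in male controls and 27.7 ± 3.01 in stressed males. For Vtn, the vitronectin gene, the values were 43.4 ± 2.09 CPM in female controls, 39.7 ± 3.51 in stressed females, 40.2 ± 3.78 in male controls and 42.7 ± 3.19 in stressed males. Both were highest in female controls.

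Among the steadiest genes, Tjp1 had 148 ± 5.63 CPM in female controls, 151 ± 11.3 in stressed females, 149 ± 7.23 in male controls and 158 ± 9.08 in stressed males. Slc7a5, which brings large neutral amino acids and the drug L-DOPA across the barrier, had 56.4 ± 2.77 CPM in female controls, 58.5 ± 2.13 in stressed females, 61.0 ± 2.24 in male controls and 59.2 ± 4.69 in stressed males. Itm2a had 43.3 ± 2.94 CPM in female controls, 39.7 ± 2.70 in stressed females, 39.3 ± 1.78 in male controls and 42.7 ± 2.22 in stressed males. Its means were lower in stressed females and male controls than in the other two groups. Bsg, the most abundant, had 329 ± 17.6 CPM in female controls, 309 ± 16.3 in stressed females, 317 ± 18.5 in male controls and 306 ± 26.4 in stressed males, with its highest mean in female controls.

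Among the most variable and least abundant identity genes, Emcn had 5.93 ± 1.87 CPM in female controls, 4.80 ± 0.511 in stressed females, 4.49 ± 0.327 in male controls and 4.75 ± 0.488 in stressed males, with the widest spread in female controls. There, library 4 had 9.04 CPM from 24 counts, against 4.34 to 6.10 CPM in the other female controls. Erg had 5.71 ± 1.03 CPM in female controls, 4.67 ± 0.336 in stressed females, 4.26 ± 0.961 in male controls and 4.53 ± 0.756 in stressed males. For Fli1 the levels were 4.42 ± 0.896 CPM in female controls, 4.09 ± 0.384 in stressed females, 3.79 ± 0.610 in male controls and 4.15 ± 0.332 in stressed males. Each of these genes had its highest mean in female controls and its lowest in male controls. Sox18, at 7.25 ± 1.43 CPM in female controls, 6.67 ± 1.21 in stressed females, 5.31 ± 0.785 in male controls and 6.55 ± 0.728 in stressed males, had the same order of extremes.

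Genes of the other roles varied in pattern. Ocln, the least abundant tight junction gene, had 10.4 ± 2.53 CPM in female controls, 11.8 ± 1.82 in stressed females, 11.4 ± 0.530 in male controls and 12.1 ± 1.29 in stressed males, with its lowest mean in female controls. Female control library 4 had 6.02 CPM from 16 Ocln counts, against 10.4 to 12.3 CPM in the other female controls. The Ocln medians were 11.6, 11.4, 11.4 and 11.8 CPM in the same order of groups. Abcg2, the efflux pump also known as breast cancer resistance protein, had 14.2 ± 2.47 CPM in female controls, 12.8 ± 1.06 in stressed females, 13.3 ± 1.21 in male controls and 13.8 ± 1.17 in stressed males. Slc16a1 levels were 42.4 ± 5.94 CPM in female controls, 35.4 ± 2.94 in stressed females, 37.3 ± 3.95 in male controls and 40.4 ± 1.87 in stressed males. Both had their lowest mean in stressed females, as did the pericyte gene Abcc9, at 11.8 ± 1.66 CPM in female controls, 10.3 ± 1.81 in stressed females, 10.5 ± 0.713 in male controls and 11.8 ± 0.982 in stressed males.

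**Figure D4:**
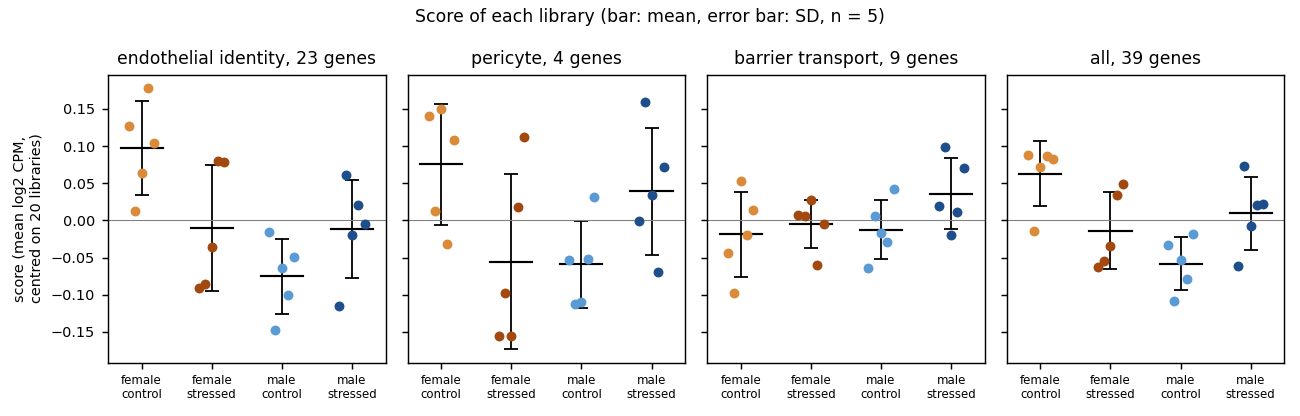
Score of each library, the mean log2 CPM over the genes of a role centred on 0 over 20 libraries, with group mean and SD (n = 5). The mean endothelial identity and pericyte scores are highest in female controls, though pericyte scores overlap between the groups; barrier transport scores overlap too.

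A score for each role, its mean log2 CPM minus the mean of all 20 libraries, sums these patterns up as a description, with no test. The endothelial identity score was 0.097 ± 0.063 in female controls, -0.011 ± 0.085 in stressed females, -0.075 ± 0.050 in male controls and -0.012 ± 0.065 in stressed males (SD, n = 5). Female controls ranged from 0.012 to 0.18 and male controls from -0.15 to -0.015, without overlap. Pericyte scores were 0.076 ± 0.081, -0.056 ± 0.12, -0.059 ± 0.058 and 0.039 ± 0.085 in the same order, and the groups overlapped. Barrier transport scores were -0.019 ± 0.057, -0.0049 ± 0.033, -0.012 ± 0.040 and 0.036 ± 0.048, with the highest mean in stressed males. The male minus female difference in controls was -0.17 for identity, -0.13 for pericyte and 0.0063 for transport genes, the last from -0.013 to 0.024 when 1 library was left out. Leaving out the transport genes that other brain cells also express (Bsg, Slc7a5, Slc16a1, Slc2a1 and Slco1c1) gave -0.048, so the sign of the transport value depended on these 5. Scored alike, the male minus female difference in controls was -0.18 for microglial, -0.19 for oligodendrocyte, -0.088 for astrocyte and -0.50 for striatal markers. It was -0.011 for neuronal, 0.11 for choroid plexus and 0.099 for ependymal markers. Stress effects on the identity score were -0.11 in females and 0.063 in males, and on the pericyte score -0.13 and 0.099. They were -0.091 and 0.085 for microglial, -0.061 and 0.018 for astrocyte, -0.24 and -0.0038 for oligodendrocyte and 0.034 and 0.59 for striatal markers.

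Within groups, after each group's mean was removed, ties between the levels of these genes across the 20 libraries were weak and differed by role. Over all 741 pairs of the 39 genes the median Pearson r was 0.0999, with 467 pairs positive. The median Pearson r over pairs of endothelial identity genes was 0.154, with 182 of 253 pairs positive, and over the 6 pairs of pericyte genes 0.267. Between identity and pericyte genes it was 0.224. Transport genes gave 0.0081 among themselves and 0.0051 with identity genes. The 3 pairs of tight junction genes went the other way, with a median of -0.324 and 0 pairs positive. An identity gene paired with any gene of the table had a median r of -0.0051. The pairs with the highest r were Pecam1 with Erg (0.732), Tie1, the partner receptor of Tek, with Vwf (0.699), and Flt1 with Ptprb (0.695). Genes of one library share its depth, dissection and scaling, so these values are a description.

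Related genes outside the 39 were taken from lists of signalling, barrier and neighbouring cell genes. Of 15 genes of the Wnt pathway that builds the barrier, 0 were higher and 5 lower in male controls at an unadjusted p under 0.05. Of all genes, 7.08% were higher and 8.17% lower. 1 of the 15 was called, where 0.747% of all genes were: Apcdd1, a Wnt target of brain endothelium that glia also express. Its difference was -0.38 (SE 0.090, adjusted p = 0.0480), with 27.3 ± 3.52 CPM in female and 20.3 ± 1.81 in male controls (SD, n = 5). This call was lost with DESeq2's size factors in edgeR, with limma-voom, with the replicate block and with the striatal covariate, and when any of 13 libraries was left out in turn, with adjusted p as high as 0.155. Foxq1, a brain endothelial transcription factor, gave -0.43 (SE 0.15, adjusted p = 0.154). For stress in males the Apcdd1 difference was 0.28 (SE 0.087, adjusted p = 0.124).

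Of 24 genes of VEGF, angiopoietin, Notch and TGF-beta signalling in vessels, none was called. 2 were higher and 6 lower in male controls at an unadjusted p under 0.05, where 7.08% and 8.17% of all genes were. Tgfbr2, a TGF-beta receptor, gave -0.31 (SE 0.075, adjusted p = 0.0533), and Klf4, a factor induced by flow, 0.45 (SE 0.11, adjusted p = 0.0648). In females, stress gave -0.45 (SE 0.12, adjusted p = 0.550) for Mmrn2, an endothelial matrix protein, and -0.26 (SE 0.074, adjusted p = 0.565) for Tgfbr2. In males it gave 0.24 (SE 0.075, adjusted p = 0.129) for the Notch target Hey1 and 0.36 (SE 0.12, adjusted p = 0.164) for the transcription factor Foxo1, which with the striatal covariate were 0.054 and -0.066.

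None of 32 further transport, junction and basement membrane genes was called. In male controls 1 was higher and 3 lower at an unadjusted p under 0.05, where 7.08% and 8.17% of all genes were. Slc39a10, a zinc carrier, gave -0.16 (SE 0.042, adjusted p = 0.0654) between controls, and Slc6a6, the taurine carrier, -0.23 (SE 0.082, adjusted p = 0.176), or -0.12 with the striatal covariate. Cav1, the caveolar coat protein, gave -0.36 (SE 0.11, adjusted p = 0.570) with stress in females. Cgn, which encodes the tight junction protein cingulin, gave -0.48 (SE 0.14, adjusted p = 0.115), or -0.24 with the striatal covariate, and the basement membrane collagen Col4a2 -0.31 (SE 0.095, adjusted p = 0.124) with stress in males.

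Icam1, a gene of endothelial activation whose protein leukocytes bind, had 1.45 to 2.76 CPM in female controls, 2.24, 4.57, 2.03, 2.66 and 10.97 in male controls and 1.73 to 2.86 in stressed males. Male control libraries 2 and 5 stood above all others. Its differences were 1.11 (SE 0.38, adjusted p = 0.157) between controls and -1.17 (SE 0.35, adjusted p = 0.120) with stress in males, and both share the male controls. Without male control library 5 they were 0.27 and -0.33.

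Other mural cells were measured with few genes. Of 5 further mural genes, 5 smooth muscle genes and 6 genes of vascular fibroblasts in the table, none was called in any comparison. Tagln, a smooth muscle gene, gave -0.43 (SE 0.19, adjusted p = 0.277), or -0.15 with the striatal covariate, and Anpep, a peptidase of pericytes, -0.31 (SE 0.18, adjusted p = 0.434) between controls. Dcn, the fibroblast proteoglycan decorin, gave -0.22 (SE 0.15, adjusted p = 0.496), -0.38 with the striatal covariate and -0.082 without female control library 3. Summed smooth muscle levels were 47.1 to 58.0 CPM in female and 38.5 to 58.8 in male controls, and fibroblast levels 162 to 188 and 161 to 179.8, none at 0. Blood markers were not analysed here.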

How the data were processed

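The deposited table holds whole-number counts per gene symbol, as the authors made them; the submitters' processing notes name STAR, featureCounts and mm10, while versions, annotation, strand setting and treatment of reads with several matches are not given in the sources used here. Per the labels, the kit was stranded and selected mRNA. No row total was under 1002.

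Counts were analysed with edgeR 4.0.16 (R 4.3.3): TMM, 1 mean per group over 20 libraries, quasi-likelihood tests of 6 contrasts, Benjamini-Hochberg over 12988 genes, threshold 0.05, two-sided. Filtering by filterByExpr removed no gene, and the common biological coefficient of variation came to 8.83%. The script was tested on simulated counts. Group values are mean ± SD. Each SE is the absolute log2 difference divided by the square root of the test's F value. For some genes it does not match the p-value, as for Cdh5 with stress in females (-0.036, SE 0.080, unadjusted p = 0.959, edgeR). Libraries are pools of mice, so p-values measure the spread between pools. Scores used log2 CPM with a prior count of 2. Gene positions and exon lengths are from GENCODE M21, and promoter windows are from RefSeq. Alternatives were other normalizations, DESeq2 1.42.0, limma-voom (limma 3.58.1), filters, covariates, the replicate block and leaving out each library.

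The members are a list of symbols; it and the other lists were chosen with earlier results of these data known. Alternatives for genes outside the 39 were added after seeing the data. Values in every group are given for called genes, the 3 smallest p of each contrast, 10 preset genes, the 3 most and 3 least variable, and the most and least abundant of each role; genes outside the 39 are those called or with the 2 smallest p of their list, and others were named after their values were seen.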

Additional observations from a re-analysis of the deposited data

Results flagged for a closer look

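In 172 groups of 5 libraries (39 genes and 4 scores, 4 groups each), the highest or lowest library was checked for a gap to its nearest neighbour above Dixon's 95% critical value. This marked 10 values, and chance marks about 1 in 20 groups. Among stressed males, library 4 stood high for Cldn5 at 27.2 CPM (next 21.9) and for Bsg at 352 CPM (next 301). Stressed male library 2 stood high for Slc2a1 at 124 CPM (next 106). Library 1 of the same group stood high for Mfsd2a at 26.0 CPM and low for Esam, an adhesion molecule of the endothelial junction, at 10.5 CPM. Stressed female library 5 stood low for Cldn5 at 18.8 CPM (next 21.3). Female control library 3 stood low for Slc2a1 at 91.0 CPM, and female control library 4, with 123 counts of the gene, low for Slco1c1 at 46.3 CPM. Male control library 2 stood high for Ly6a at 18.3 CPM. For the score over all 39 genes, female control library 2 stood low at -0.014.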

How the results depend on the processing

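The number of the 39 genes called between male and female controls was 1 with edgeR, 3 with DESeq2, 2 with the oligodendrocyte covariate, 2 with only the control groups in the fit, and 1 to 2 when 1 library was left out (2 without stressed female library 5, which added Ptprb, or without stressed male library 2, which added Slc2a1). DESeq2 called 1 gene, Cldn5, in the sex by stress test, against 0. The share of all genes called is given only for the main edgeR fit, so counts under the alternatives cannot be set against one. In the other 4 comparisons no alternative and no fit without 1 library called any. Without the members that other brain cells also express, the transport score difference was 0.11 for stress in males, -0.048 between controls and 0.077 for averaged stress, against 0.048, 0.0063 and 0.031; the cause was not tested. Of the values recomputed for single genes, 2039 kept direction and side of the threshold, 22 passed it only under the alternative (among the 39, for Ptprb, Slc2a1 and Cldn5), and 27 lost it, all for Apcdd1, Ddit4 and Arrdc2. Foxo1 for stress in males, not called, changed sign with the striatal covariate, to -0.066 from 0.36; the cause was not tested. No called value changed sign.

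Correlations of same-numbered libraries between groups ran from -0.473 to 0.237, 5 of 30 over 0.1. Differently numbered libraries were not correlated, so these values cannot decide whether replicate numbers pair the libraries. With the replicate block 1 of the 39 genes (Cldn5) was called between controls and 0 in each other comparison.

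Depth limits the least counted genes: Fli1 had as few as 12 counts, Sox18 15 and Ocln 16 in a library. All of these were in female control library 4, the library with the fewest counts in total. Among female controls it also held the highest CPM of Cldn5 (30.1 from 80 counts), Tek (18.8 from 50) and Cdh5 (17.3 from 46), and the highest endothelial identity score (0.179). It did not hold the highest of Ptprb or Podxl. Cldn5 stayed called between controls in every fit without 1 library. Genes under the table's lowest row total were not analysed here, and pooling 3 mice hides the spread between single mice.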
